A study of Mus musculus with 6 samples.

Results

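The protein genes of the mitochondrial ribosome were examined in total RNA that the labels assign to spermatogonia, the dividing germ cells from which sperm derive. A gene was a member when a probe set on the arrays carried a single gene symbol made of Mrpl or Mrps and a number. The rule found 74 genes, 46 with an Mrpl and 28 with an Mrps symbol, among the 15964 genes that the 3 chips name with a single symbol. These 74 genes were covered by 129 of 36701 probe sets. Each gene was represented by its brightest probe set, meaning the one whose signal had the highest rank relative to its own chip. The compared groups were wild-type mice and Zfp145 knockout mice, here called null. Zfp145 encodes the repressor now named Zbtb16 and also called PLZF. Both groups were 1 week old and of a mixed 129sv and C57Bl/6 background. Each genotype has 1 array of every chip type, U74Av2, U74Bv2 and U74Cv2, and the probe sets differ between chip types. The 6 arrays therefore hold no replicates, so differences between genotypes could not be tested. The labels do not say how many animals were pooled, which part of the gene was deleted, or how the cells were purified.

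The mitochondrial ribosome translates the few messages encoded by mitochondrial DNA, all of which specify subunits of the respiratory chain and of ATP synthase. Its RNA comes from the mitochondrial genome, but every one of its proteins is encoded in the nucleus, made in the cytosol and imported. Some of these proteins descend from bacterial ribosomal proteins, and others were added in mitochondria and have no bacterial relative. The germ cells of the testis rely on the organelle to different degrees as they differentiate, and PLZF is known for keeping spermatogonia undifferentiated.

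Some properties of the arrays touch every value that follows. Signals of single probe sets are given as deposited. Ratios are log2 of null over wild type after a small rescaling of the null array, and summed signals also use the rescaled null array. Signal under the floor of a chip, 98.3 on U74Av2, 165 on U74Bv2 and 124 on U74Cv2, was raised to the floor. The only measure of error is the spread of log2 ratios between probe sets of 1 gene on 1 chip. For U74Av2 it went from 0.32 in the dimmest signals through 0.29 to 0.18 in the brightest. The same classes gave 0.36, 0.33 and 0.27 for U74Bv2 and 0.56, 0.44 and 0.31 for U74Cv2. This spread does not cover the spread between animals. The probe set of the targeted gene on U74Av2 that lay above the floor read 770.2 in wild type and 158.1 in null, a ratio of -2.29, and the one on U74Cv2 read 1156.8 and 510.8, a ratio of -1.20. Whether these probes lie in the deleted part is not known here. Of 25 listed spermatogonial markers 21 were on the chips and 19 above the floor on both arrays, among them the germ cell gene Dazl at 4287.3 and 6372.8. Ret lay below it. Markers of somatic testis cells were also read, with 14 of 15 Sertoli markers, 6 of 8 Leydig markers and 5 of 8 macrophage markers above the floor. Spermatogonial markers had a median ratio of 0.13, with 14 of 20 above 0. Their ratios ran from -1.32 for Sall4 to 1.16 for Bcl6b, both on U74Cv2. Pou5f1 on that chip, under the floor in null, stood at -1.19 or lower. Summed signal of these markers was 59400 in wild type and 56800 in null, and Rhox13 alone read 17807.1 and 12018.6. Sums were 37400 and 34000 for Sertoli cells, where Clu alone read 16758 and 14551.7, and 5730 and 4570 for Leydig cells. They were 3730 and 3380 for macrophages, 5680 and 5600 for peritubular cells and 2640 in both for endothelial cells. Single bright genes thus weigh heavily in these sums. Median ratios of the bacterial hybridization controls lay between 0.24 and 0.29, and those of the 18S ribosomal RNA probe sets were 0.46 on each chip. The part of these differences in the results was not tested. In bulk RNA, fewer cells of a type and less RNA per cell cannot be told apart.

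Signals of the mitochondrial ribosomal protein genes lay close to equality between the genotypes as a group. Of the 74 genes, 69 gave a ratio and 5, Mrpl14, Mrpl19, Mrpl49, Mrpl53 and Mrps16, gave none because both arrays were at or below the floor. The median ratio was 0.00, with the middle of the genes between -0.16 and 0.15, and all 12431 measured genes had a median of -0.01. Ratios below 0 were found for 34 of 69 members, or 49.3%, against 51.5% of all genes. At least 2-fold lower in the null was 1 member, Mrps5, where the share among all genes was 1.64%. No member was at least 2-fold higher, where the share among all genes was 1.42%. At 1.5-fold the counts stayed at 1 lower and 0 higher, against 6.36% and 5.34% of all genes. These shares differ between chips, and 51 of the 69 members with a ratio were read on U74Av2. There 176 of 4827 genes were at least 1.5-fold lower and 137 higher, and 18 and 19 passed 2-fold. On U74Cv2, with 6 members, 398 of 3240 genes were at least 1.5-fold lower and 331 higher. Ratios smaller than the probe set spread at their level were found for 46 members, where the share among all genes was 64.8%. Beyond 2 such spreads lay Mrps5 and Mrps7 on the lower side and Mrpl45 on the higher side, where the shares among all genes were 4.91% and 4.12%.

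**Figure D1:**
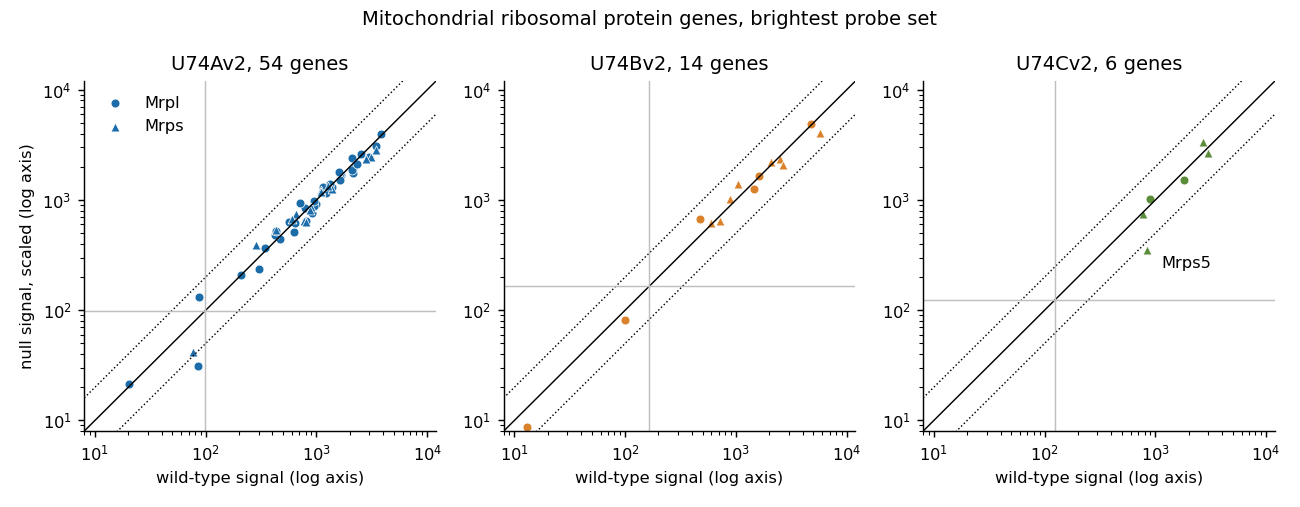
Signal of the 74 mitochondrial ribosomal protein genes in the wild-type array (x axis) and the rescaled null array (y axis), both on log axes, on each chip. Solid lines mark equal signal, dotted lines a 2-fold difference and grey lines the floor of the chip; the 6 genes of U74Cv2 include Mrps5, the member above the floor that lies outside the dotted lines.

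The genes were spread unevenly over the chips. On U74Av2 51 members with a ratio had a median of 0.00 and a standard deviation over genes of 0.21. All 4827 genes of that chip had a median of -0.01 and a standard deviation of 0.31. The spread falls with signal, and these 2 deviations were not matched for signal. Within 1 spread of 0 at their level lay 33 of the 51 members and 3012 of the 4827 genes. On U74Bv2 12 members had a median of 0.03, and their ratios ran from -0.50 to 0.51. On U74Cv2 6 members had a median of -0.11, and Mrps5 alone lay outside the interval from -0.27 to 0.30. The chip with the fewest members therefore held the most distant ratio.

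Promoters were compared because genes of this family are known to be read by shared factors, among them NRF1, the ETS factor GABP and YY1. RefSeq promoter windows of GRCm38.p6, from 250 bases before to 50 after the start, were found for 65 of the 74 members. Exact words were searched on both strands, CCGGAAG for ETS factors, GCGCATGCG for NRF1, AAGATGGCG for YY1 and GGGCGG for SP factors. The ETS word was held by 24 members, or 36.9%, against 15.8% of the 12681 genes on the chips with a window and 9.93% of all genes of the table. The YY1 word was held by 8, or 12.3%, against 2.82% and 1.64%, and the NRF1 word by 4, or 6.15%, against 3.26% and 1.95%. The SP word was held by 33, or 50.8%, against 60.1% and 38.2%. Cytosolic ribosomal genes held the ETS word in 40% and respiratory chain genes in 30.6% of windows, so the ETS share is not particular to the mitochondrial ribosome. The same 2 groups held the YY1 word in 11.4% and 11.1% and the NRF1 word in 5.71% and 12.5% of windows. Those shares are therefore not particular to it either.

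**Figure D2:**
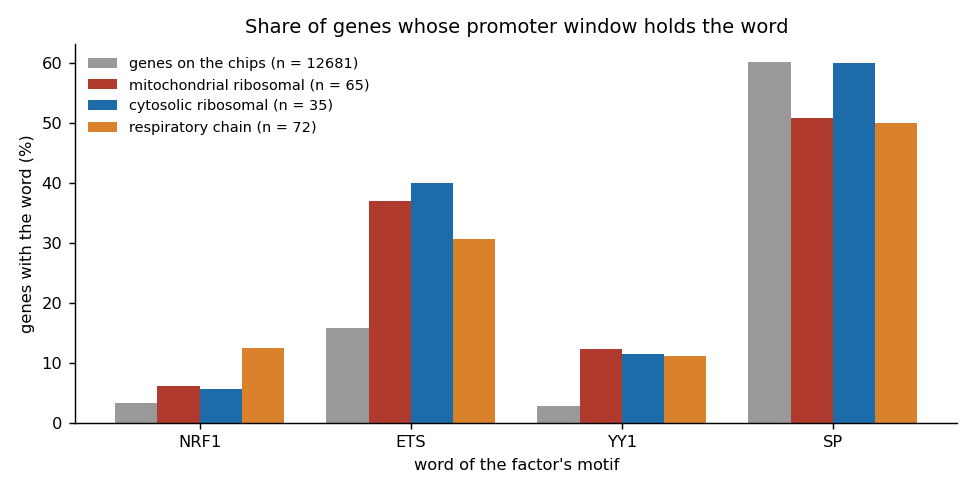
Percent of genes whose promoter window holds the word of each factor, for genes on the chips (n = 12681), mitochondrial ribosomal (n = 65), cytosolic ribosomal (n = 35) and respiratory chain genes (n = 72). The bars start at 0; the ETS word reaches 36.9% in the mitochondrial ribosomal genes and 15.8% in genes on the chips.

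Ratios were close to 0 with and without these words. Members with the ETS word had a median of -0.06 over 22 genes and those without it 0.03 over 39. With the YY1 word the median was -0.03 over 8 genes, and with the NRF1 word -0.14 over 4. Members with the SP word had a median of -0.10 over 30 genes and those without it 0.05 over 31. At least 1 of the ETS, YY1 and NRF1 words was held by 33 of the 65 members, or 50.8%. Among genes on the chips with a window that share was 20.4%. The 8 lowest members above the floor on both arrays held one in 4 windows, which is about the share of all members. Of the 8 highest above the floor on both arrays 7 had a window, and 0 of these held one, while Mrpl42, which has only a bound, held the YY1 word. The 8 lowest and 8 highest were chosen by their ratios, and the difference between them was not tested. The SP word was held by Mrps5, Mrps6, Mrps7, Mrps14 and Mrps18c among the lowest and by Mrpl1, Mrps9 and Mrps15 among the highest. The promoters of 4 of the lowest members and of Mrpl1, the highest above the floor on both arrays, are shown as examples of each word. Each line gives the 160 bases before the start, 5′ to 3′ on the strand of the gene, with the matched word in capitals. The stretches lie at chr5:100798599-100798758 on the plus strand for Mrps18c, chr3:94443176-94443335 on the plus strand for Mrpl9, chr16:84735245-84735404 on the minus strand for Mrpl39, chr13:73330849-73331008 on the plus strand for Mrpl36 and chr5:96209955-96210114 on the plus strand for Mrpl1, all in GRCm38.p6. The capitals mark the ETS word on the reverse strand in Mrps18c, the NRF1 word, matched on both strands with overlap, in Mrpl9 and Mrpl39, the YY1 word on the reverse strand in Mrpl36 and the SP word on the reverse strand in Mrpl1.
Mrps18c: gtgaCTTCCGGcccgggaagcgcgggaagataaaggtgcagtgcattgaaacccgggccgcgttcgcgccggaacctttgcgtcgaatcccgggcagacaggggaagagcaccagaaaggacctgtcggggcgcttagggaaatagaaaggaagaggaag
Mrpl9: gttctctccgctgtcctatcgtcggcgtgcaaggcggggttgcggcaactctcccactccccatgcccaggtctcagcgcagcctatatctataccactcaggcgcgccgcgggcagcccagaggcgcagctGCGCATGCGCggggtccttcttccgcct
Mrpl39: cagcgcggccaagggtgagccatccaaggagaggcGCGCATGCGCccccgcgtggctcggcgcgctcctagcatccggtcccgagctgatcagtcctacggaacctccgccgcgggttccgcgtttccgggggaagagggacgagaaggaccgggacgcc
Mrpl36: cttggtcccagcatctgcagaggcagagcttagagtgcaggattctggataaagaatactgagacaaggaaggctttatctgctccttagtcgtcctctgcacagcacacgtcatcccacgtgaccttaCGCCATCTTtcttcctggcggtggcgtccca
Mrpl1: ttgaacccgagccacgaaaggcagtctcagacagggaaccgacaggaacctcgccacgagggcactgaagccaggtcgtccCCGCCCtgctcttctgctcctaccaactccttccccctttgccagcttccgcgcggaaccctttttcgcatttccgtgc
In Mrpl9 the NRF1 word begins 28 bases before the start and in Mrpl39 125 bases before it. The 4 genes with this word lay on both sides of 0, with Mrpl9 at -0.35, Mrpl39 at -0.32, Mrpl17 at 0.09 and Mrpl32 at 0.03. In Mrps18c the ETS word begins 156 bases before the start. A match is a description of letters and not of a bound site.

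The large subunit carries the peptidyl transferase, the stalks that recruit translation factors, and the tunnel through which the new chain leaves. The 42 Mrpl genes with a ratio had a median of 0.03 and ran from -0.35 to 0.51. These sites were grouped after the values had been seen, so their values are descriptions only. Mrpl1, the protein of the L1 stalk next to the exit site for transfer RNA, read 470.1 in wild type and 671 in null on U74Bv2, a ratio of 0.51. It was the highest ratio among members above the floor on both arrays, but a second probe set on the same chip read 201.4 and 189.6, a ratio of -0.09. Mrpl12, the counterpart of the bacterial stalk protein that binds translation GTPases, read 1139 and 1254.3, a ratio of 0.13. Mrpl11, at the base of that stalk, stood at -0.10. The stalk proteins thus showed no shared direction.

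Proteins of the large subunit core near the peptidyl transferase centre, Mrpl2, Mrpl3, Mrpl4 and Mrpl16, lay between -0.14 and 0.18. Around the exit tunnel, Mrpl45, which tethers the ribosome to the inner membrane, read 714.6 in wild type and 948.4 in null. Its ratio of 0.40 was 2.24 times the spread at that level, and a second probe set on U74Av2 gave 0.13. Mrpl47, a tunnel exit protein and the Mrpl gene of the highest level percentile, read 4764.6 and 4898.6, a ratio of 0.04. Mrpl24, also at the exit, read 2502.3 and 2622.9, a ratio of 0.06. Of the 5 tunnel genes 4 had ratios above 0, and all but Mrpl45 were within 1 spread of 0.

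The central protuberance bridges to the small subunit and is built largely from proteins that bacteria lack. Of its 8 genes 6 had ratios below 0, and 7 were within 1 spread of 0. The ratios ran from -0.28 for Mrpl48 to 0.18 for Mrpl38. Mrpl48 read 918.3 in wild type and 762.2 in null. Other Mrpl48 probe sets gave -0.25 on U74Av2, 0.48 on U74Cv2 and, with wild type under the floor, at least 0.57 on U74Bv2. Mrpl18, a protein conserved from bacteria, read 3430.3 and 3080.4, a ratio of -0.16, and its second probe set gave 0.00. Mrpl46 read 1832.2 and 1540.2 on U74Cv2, a ratio of -0.27. Mrpl58, a peptidyl-tRNA hydrolase that frees stalled ribosomes, read 638.2 and 619.3, a ratio of -0.05.

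The lowest ratios of Mrpl genes above the floor on both arrays belonged to Mrpl9, Mrpl39 and Mrpl36. Mrpl9, a counterpart of a bacterial surface protein of the large subunit, read 303.1 in wild type and 239.5 in null, a ratio of -0.35 that became -0.03 with the floor at the 60th percentile. Mrpl39, a protein without a bacterial counterpart, read 804.8 and 650, a ratio of -0.32, and its probe set on U74Cv2 went the same way at -0.20. Mrpl36, a small protein with a bacterial counterpart, read 624.2 and 512.5, a ratio of -0.29. Among the brighter genes, Mrpl51 read 2986.5 and 2474.3, a ratio of -0.28, while Mrpl52 read 3826.3 and 3989.9, a ratio of 0.05. On the other side Mrpl54 read 430.5 and 522.9, a ratio of 0.27. Mrpl42 read 87.7, below the floor, in wild type and 133.1 in null, so it was at least 1.35-fold higher. As a bound, this value has no rank among the members.

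The small subunit binds the message and decodes it. The 27 Mrps genes with a ratio had a median of -0.07 and a standard deviation over genes of 0.35, against 0.21 for the Mrpl genes. The value of 0.35 includes Mrps5, the most distant gene, at -1.25 on U74Cv2 but 0.18 on U74Av2. Symbols do not always give the place of the protein. Mrps30 and Mrps18a encode proteins found in the large subunit, and Mrps36 is now known as a subunit of the ketoglutarate dehydrogenase complex. Assigned by place, the medians were 0.03 over 44 large and -0.05 over 24 small subunit genes. This difference was not tested.

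Mrps5 lines the channel by which the message enters. It read 834.3 in wild type and 356.8 in null on U74Cv2, a ratio of -1.25 or 2.38-fold lower. On that chip 4.66% of genes were at least 2-fold lower. Its probe set on U74Av2 read 284.7 and 324.4, a ratio of 0.18, and the one on U74Bv2 read 40.5 and 2.4, both under the floor. The direction for Mrps5 thus differed between the chips that measured it.

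Other proteins along the path of the message gave ratios on both sides of 0. Mrps18c, whose bacterial relative sits on the platform, read 5699.3 in wild type and 4036.7 in null on U74Bv2, a ratio of -0.50. Mrps7, a head protein next to the exit of the message, read 811.4 and 629.2, a ratio of -0.38, below 0 by more than 2 spreads. Mrps2 read 285.7 and 389.5, a ratio of 0.44. Mrps24, at the entry, stood at 0.18, and Mrps12, the protein at the decoding centre, stood at 0.09. Mrps11, a platform protein, stood at -0.12. With Mrps5, 4 of these 7 genes were below 0.

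Among the remaining Mrps genes several bright ones read lower in null. Mrps14, a protein of the head, read 3089.4 in wild type and 2458.1 in null, a ratio of -0.34. Mrps17, a body protein that binds ribosomal RNA, read 3428.1 and 2833.4, a ratio of -0.28. Mrps6, on the platform, read 2682.9 and 2090.9, a ratio of -0.36. Mrps23, which bacteria lack, was nearer to 0 by its brightest probe set, at 2512.2 and 2361 on U74Bv2, a ratio of -0.09. However, a second Mrps23 probe set on that chip read 2177.2 and 1606.1, a ratio of -0.44, and one on U74Cv2 gave 0.06. Reading higher in the null were Mrps30 at 1041.1 and 1395.5, a ratio of 0.42, and Mrps15, a conserved protein that binds ribosomal RNA early, at 431.9 and 539.2, a ratio of 0.31. Mrps31, which bacteria lack, read 2709.7 and 3388.8 on U74Cv2, a ratio of 0.30 against -0.17 on U74Av2, and Mrps9, whose tail reaches the peptidyl site, read 884 and 1023.4, a ratio of 0.21.

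**Figure D3:**
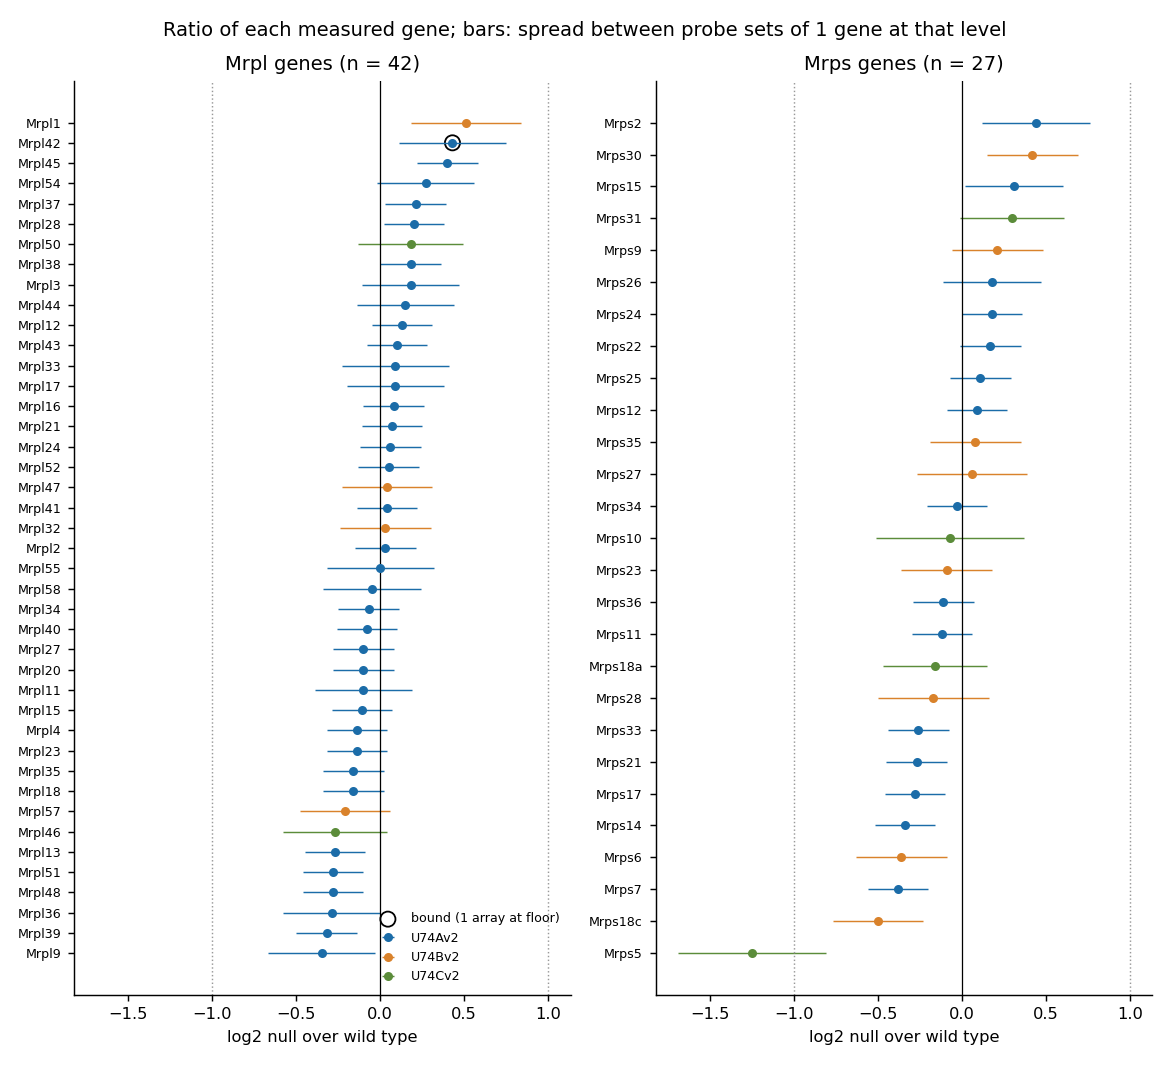
Log2 ratio of null over wild type for the 42 Mrpl and 27 Mrps genes with a ratio, coloured by chip, with bars for the spread between probe sets of 1 gene at that chip and level. Dotted lines mark a 2-fold difference, and Mrps5 at -1.25 is the gene beyond them.

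When members were divided by origin, the genes with a bacterial counterpart had a median of -0.10 over 41 genes and the mitochondria-specific genes a median of 0.08 over 27. Ratios below 0 were found for 23 of 41 and 10 of 27, or 56.1% and 37%, against 51.5% of all genes. Within 1 spread of 0 lay 26 of the 41 and 19 of the 27, where the share among all genes was 64.8%. Within the small subunit the medians were -0.17 over 15 and 0.08 over 9 genes, and within the large subunit -0.03 over 26 and 0.07 over 18. Among members brightest on U74Av2 they were -0.10 over 31 and 0.10 over 19. When each gene was read from U74Av2 alone they were -0.07 and 0.04, and with plain probe sets only, those without a design suffix, -0.03 and 0.05. The ranges overlapped, from -1.25 to 0.51 and from -0.32 to 0.43, the latter being the bound of Mrpl42. The distance between the medians depends on the probe sets used and has no replicate check.

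Other probe sets of the same genes show how far single ratios can be trusted. Of the 74 genes, 35 had more than 1 probe set, and 20 had at least 2 above the floor on both arrays. In 8 of these 20 all such probe sets had the same sign, and in 9 the others went the same way on average as the brightest. The median distance between the highest and lowest ratio of a gene was 0.31. Among probe sets above the floor on both arrays, distances were smallest for Mrpl15, at 0.04, for Mrpl46, at 0.08, and for Mrpl39 and Mrpl3, both at 0.12. Mrps18a had 5 probe sets on 2 chips, all below 0, from -0.37 to -0.13. Distances were largest for Mrps5, at 1.43, Mrpl41, at 1.23, Mrpl24, at 1.14, and Mrpl48, at 0.76.

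Over probe sets instead of genes, 100 of the 129 gave a ratio, and 4 of them were at least 2-fold different, against 4.64% of all probe sets. None of these 4 lay among the 66 on U74Av2, where the share was 0.908%. On U74Bv2 it was 1 of 18, where the share was 1.82%, and on U74Cv2 3 of 16, where the share was 11.1%. Beside that of Mrps5, they were a probe set of Mrpl24 on U74Bv2 that read 213 in wild type and 489.6 in null, a ratio of 1.20, and on U74Cv2 those of Mrpl41 and Mrpl15. Mrpl41 read 353.3 and 157.1, a ratio of -1.19, against 0.04 by its bright probe set on U74Av2. Mrpl15, at 354 and 55.9, lay under the floor in null and was there at least 2.85-fold lower, against -0.11 by its brightest probe set and -0.07 by another on U74Cv2. In all 4 genes a different probe set measured on both arrays gave a ratio between -0.11 and 0.18.

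**Figure D4:**
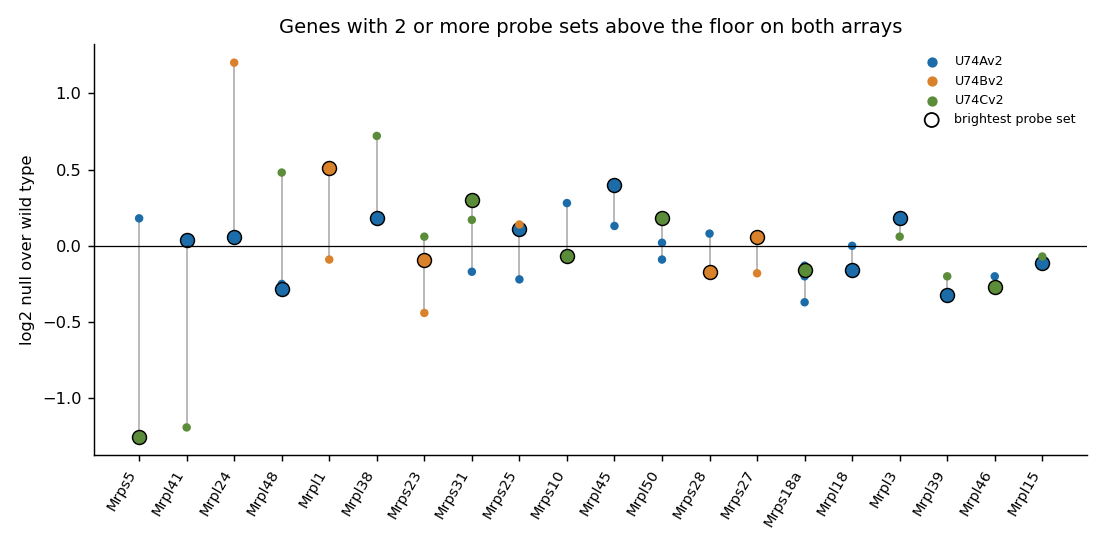
Log2 ratio of each probe set above the floor on both arrays for the 20 genes with at least 2 such probe sets, coloured by chip and ordered by the distance between highest and lowest. Circled points are the brightest probe sets; the distance runs from 1.43 for Mrps5 to 0.04 for Mrpl15, whose probe set with null under the floor is not drawn.

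The proteins that serve this ribosome were read from a list of 82 further genes. Of these 69 were on the chips and 65 gave a ratio, with a median of 0.05 and 26 ratios below 0. None was at least 2-fold different in either direction. Translation factors had ratios above 0 for 10 of 12 genes, with a median of 0.12, where 6031 of all 12431 genes were above 0. Of the 12, 8 were within 1 spread of 0, none lay beyond 2 spreads, and 1 was a bound. The formyltransferase of the initiator transfer RNA, Mtfmt, read 1601.2 in wild type and 2182.7 in null, a ratio of 0.44, and the methionine aminopeptidase Metap1d stood at -0.03. Enzymes that charge mitochondrial transfer RNA had a median of 0.18 over 19 genes, 12 of them above 0 and 13 within 1 spread of 0. Gars, which serves cytosol and mitochondria, read 2138.3 and 2753, a ratio of 0.36, and Vars2 stood at 0.18.

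Factors of ribosome assembly and ribosomal RNA modification had a median of -0.03 over 17 genes. The helicase Dhx30 stood at 0.12 and the GTPase Mtg2 at -0.20. Genes that copy or express mitochondrial DNA had a median of 0.11 over 14 genes, with the RNA processing enzyme Elac2 at 0.32 and the DNA polymerase Polg at 0.19. Ribosomal proteins whose symbols lie outside the rule were close to 0. Dap3, a GTP-binding protein of the small subunit, read 1114.3 and 1086, a ratio of -0.05, and Gadd45gip1 of the large subunit stood at -0.19.

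The cytosolic ribosome, which makes the imported proteins, and the respiratory chain, which the mitochondrial ribosome serves, were read beside it. The median was -0.03 for 36 genes of the cytosolic ribosome, with 24 below 0. Nuclear genes of the respiratory chain and ATP synthase, with some assembly factors, had a median of -0.17 over 85 genes, with 67 below 0 and the middle of the genes between -0.31 and -0.01. Without assembly factors the median was also -0.17, over 72 genes. Members of the mitochondrial ribosome were below 0 in 34 of 69, and the share among all genes was 51.5%. The differences between these gene groups were not tested.

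**Figure D5:**
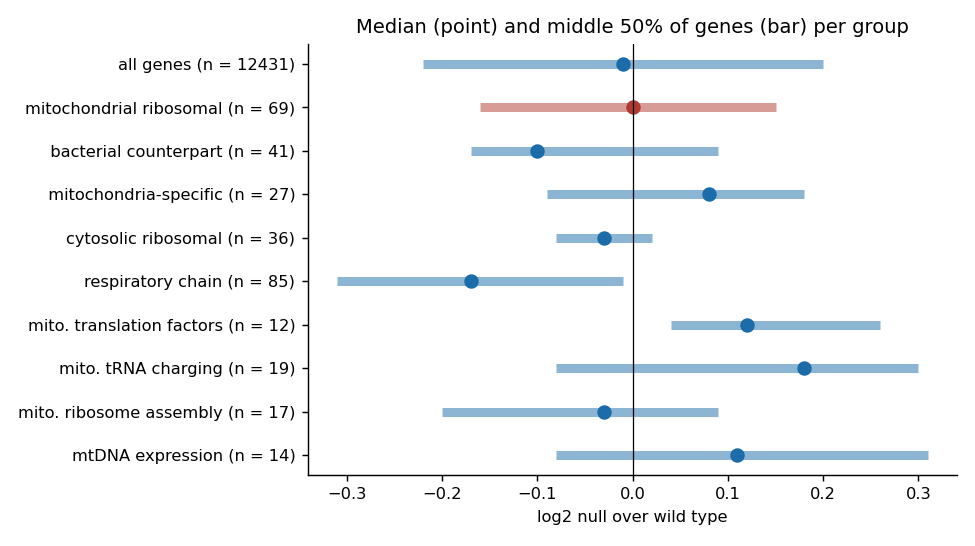
Median (points) and middle 50% (bars) of log2 ratios of null over wild type for all genes, the mitochondrial ribosomal genes and related groups, with the number of genes. The median is 0.00 for the 69 mitochondrial ribosomal genes and -0.17 for the 85 respiratory chain genes.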

How the data were processed

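RNA of wild-type and Zfp145-null mice was measured on single-colour arrays, 1 per genotype on each of 3 chips. Groups were taken from the sample titles. Values are linear intensities per probe set as deposited by the authors; the software behind them is not given in the sources used here. Their mean after trimming 2% at each end was 500 on every array, so they had been scaled.

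The chips were handled separately. After removal of 66 control probe sets per chip, null signals were rescaled by the median ratio to wild type over the upper 50% of mean rank (log2 shifts of 0.01, 0.00 and 0.02), and the floor was the 40th percentile of both arrays. A fold of 2 was counted. Gene names came from GEO's platform annotation, and all 74 members matched RefSeq by Entrez identifier. Probe sets with several symbols were not used for members. Members and lists were chosen with earlier results of these data known, and the count at 2 spreads was chosen after the values were seen.

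Named members were those at least 2-fold different or at the floor on 1 array, the 8 highest and 8 lowest, the 4 brightest of each subunit, and the 5 genes each whose probe sets differed most and least. From the other lists the 2 brightest of each group were named. Alternatives were the values as deposited, quantile and loess scaling, floors at the 20th and 60th percentiles and none, thresholds of 1.5-fold and 3-fold, plain probe sets only, fewer chips, and the mean over probe sets. Python 3.11.15, numpy 2.4.6, pandas 2.3.3, statsmodels 0.14.6 and matplotlib 3.10.9 were used, and the calculation was tested on simulated data.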

Additional observations from a re-analysis of the deposited data

How the results depend on the processing

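The median ratio of the mitochondrial ribosomal protein genes lay between -0.04 and 0.02 in all settings run, and between 28 and 38 members were below 0, with 58 to 74 members giving a ratio. The large subunit median ranged from 0.01 to 0.04 and the small subunit median from -0.09 to 0.02, above 0 with U74Av2 alone. The medians by origin ranged from -0.11 to -0.03 for genes with a bacterial counterpart and from 0.04 to 0.09 for the others. The respiratory chain median ranged from -0.17 to -0.11, the cytosolic ribosomal one from -0.03 to 0.03, above 0 after quantile and loess scaling, and that of the other mitochondrial translation genes from 0.02 to 0.06. No member was at least 2-fold higher in any setting. The count of members at least 2-fold lower was 2 with no floor and also with one at the 20th percentile, where Mrpl14, at 85 and 31.4 under the main floor, was added. It was 0 without U74Cv2, with U74Av2 alone, with the mean over probe sets and at 3-fold, where Mrps5 at 2.38-fold lower is not counted. Mrps5 turned to 0.18 without U74Cv2 and with U74Av2 alone, and stood at -0.53 as the mean over probe sets. Mrps31 turned to -0.17 in both of these and with plain probe sets only. Of 281 values of named members under alternatives, 271 moved by no more than the probe set spread. A change of sign was seen in 7 of the remaining values, those of Mrps5 and Mrps31 above and, as the mean over probe sets, Mrpl41 at -0.58 and Mrpl48 at 0.13. In that setting Mrpl15 stood at -0.56 and Mrpl24 at 0.63. Many of the 281 values could not move, since a gene with 1 probe set well above the floor keeps its value under several settings. Values that a setting did not give were not counted. Assignment by place in the ribosome and the restriction to members above the floor on both arrays were chosen after the data were seen. No paired analysis was possible because each genotype has 1 array per chip. Genes near the floor are limited by signal over background. Mrpl42 was at 0.59 with no floor or a 20th percentile floor, and Mrpl9 at -0.03 with the floor at the 60th.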

Other observations

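Factors known to drive nuclear genes of mitochondria were measured as a list of 10, of which 8 gave a ratio, with a median of 0.01 and 4 ratios below 0. Pprc1, a coactivator of the PGC-1 family, read 567.8 in wild type and 855.7 in null, a ratio of 0.58, and Nrf1 read 1117 and 1357.4, a ratio of 0.28. Both were chosen after their values were seen. On the lower side, Yy1 stood at -0.21, Esrra at -0.15 and Gabpa at -0.08. Gabpb1, a subunit of the ETS factor GABP, read 4813.8 and 4449.7, a ratio of -0.14, and Sp1 read 6284.5 and 6725.8, a ratio of 0.09. Myc and Ppargc1a lay at or below the floor on both arrays.

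Probe sets that the annotation pairs with a mitochondrial ribosomal protein gene and a second gene were left out of the members, and 6 were found. A probe set shared by Mrps18b and Gm13552 read 1358.1 in wild type and 1488.7 in null, a ratio of 0.12, and one shared by Mrpl30 and Gm6238 read 1085.8 and 905.6, a ratio of -0.27. Mrpl53, without a ratio among the members, shares a probe set with Ccdc142 that read 430.1 and 368.8, a ratio of -0.23. Which gene that probe set reads was not tested. A probe set shared by Mrpl41 and Gm6434 on U74Cv2 read 288 and 595.1, a ratio of 1.02, where another Mrpl41 probe set of that chip gave -1.19 and the brightest, on U74Av2, gave 0.04. Whether the shared probe set reads Mrpl41 or Gm6434 was not tested.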
